A study of Homo sapiens with 6 samples.

Results

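The genes described here encode 9 enzymes that break down phenylalanine, tyrosine and tryptophan, the amino acids with an aromatic ring. They were taken by gene symbol from the deposited table: TAT, HPD, HGD, GSTZ1 and FAH of the tyrosine arm, and TDO2, KMO, KYNU and HAAO of the kynurenine arm. All 9 had a row among 16659 genes. RNA was measured in HepaRG, a human liver cell line derived from a cancer, which the labels call a stem cell line. No drug was given to any culture. The 3 wild-type libraries are the control, and the other 3 libraries carry the label of a functional knockout of PXR, the pregnane X receptor that senses drugs and bile acids and is encoded by NR1I2. The labels do not say how the knockout was made, whether it is a clone, or whether libraries came from separate cultures, so p-values measure the spread between these libraries, which may be technical. Below, the word knockout stands for that label.

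Most phenylalanine is turned into tyrosine in the liver. Tyrosine aminotransferase (TAT) starts the breakdown of tyrosine by removing its amino group, HPD makes homogentisate, HGD opens the ring, GSTZ1 isomerises the product and FAH splits it into fumarate and acetoacetate. Tryptophan enters the kynurenine pathway through TDO2, an oxygenase of hepatocytes, or through the related oxygenases IDO1 and IDO2. KMO hydroxylates kynurenine, KYNU cleaves the product to hydroxyanthranilate, and HAAO opens that ring, after which the carbon goes either to NAD or to full oxidation. TAT and TDO2 are known as glucocorticoid-responsive genes of mature hepatocytes.

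Expression values are scaled CPM, that is, reads set against the size of the library times a scaling factor. The step worth 1 read gave estimated depths of 11359200 to 20945976 reads in wild type and 28154894 to 33393113 in the knockout, so all knockout libraries were deeper. Levels carry their SD (n = 3 per group) and log2 changes their standard error (SE). Log2 changes are knockout minus wild type after adding 0.5 CPM to each value, so those of low genes come out too small. The targeted gene was higher in the knockout, NR1I2 lying at 7.04 to 8.24 CPM in wild type and 13.1 to 14.3 CPM in the knockout, and a sum over a whole gene does not check a functional knockout. Of 10 hepatocyte markers 9 were measured and all 9 rose, 8 of them above 1 CPM in every library. The last, ASGR1, was at 0.742, 0.441 and 0.855 CPM in wild type and passed the filter on low values (scaled CPM above 1 in at least 3 libraries) only through the knockout. The summed level of the 9 was 2227 to 2299 CPM in wild type and 43027 to 44226 CPM in the knockout. ALB alone made 867 ± 36.1 CPM of the sum in wild type and 32829 ± 511 CPM in the knockout. Bile duct markers (5 of 10 measured, 2 higher and 2 lower of 4 tested) summed to 489 to 515 CPM in wild type and 374 to 400 CPM in the knockout. Within them SPP1 fell from 382 ± 12.4 to 43.6 ± 1.46 CPM while KRT19 rose from 111 ± 2.89 to 334 ± 12.2 CPM. Stellate markers (9 of 10 measured, 5 higher and 4 lower) summed to 129 to 135 CPM and 505 to 527 CPM, of which DCN made 63.1 ± 2.61 and 335 ± 9.40 CPM. Endothelial markers split: of 7, only KDR (53.3 ± 0.20 to 218 ± 3.93 CPM, higher) and PECAM1 (1.58 ± 0.055 to 0.353 ± 0.20 CPM, lower) were measured. Leukocyte markers (3 of 10 measured, 2 higher and 1 lower) summed to 13.6 to 16.8 CPM and 22.7 to 24.1 CPM. Progenitor or fetal markers (3 of 7 measured, 2 higher and 0 lower) summed to 102 to 107 CPM and 250 to 256 CPM. Of these sums CD24 made 102 ± 3.28 and 248 ± 3.24 CPM, and AFP went from 1.80 ± 0.23 to 3.52 ± 0.10 CPM. The 6 cell cycle markers (1 higher, 5 lower) summed to 742 to 752 CPM and 372 to 388 CPM. The part of cell type and proliferation in the results below was not tested, and in bulk RNA fewer cells of a type and less RNA per cell cannot be told apart.

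Of the 9 enzymes, 8 rose and FAH fell in the knockout. Of all 16219 genes tested with limma, 79.9% passed the threshold (adjusted p under 0.05), 40.3% upward and 39.6% downward, so passing the test does not by itself set the enzymes apart. In no enzyme did the groups overlap, which held for 80.8% of all tested genes. Rises of at least 2-fold were made by 6 of the 9 enzymes and by 12.6% of tested genes. KMO passed the filter on low values only through the knockout libraries, where it was high, and therefore had to differ. The other 8 enzymes were above 1 CPM in all 6 libraries, with a median log2 change of 2.15 beside 0.01 for all tested genes. These counts and medians describe the list and are no test of it.

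**Figure D1:**
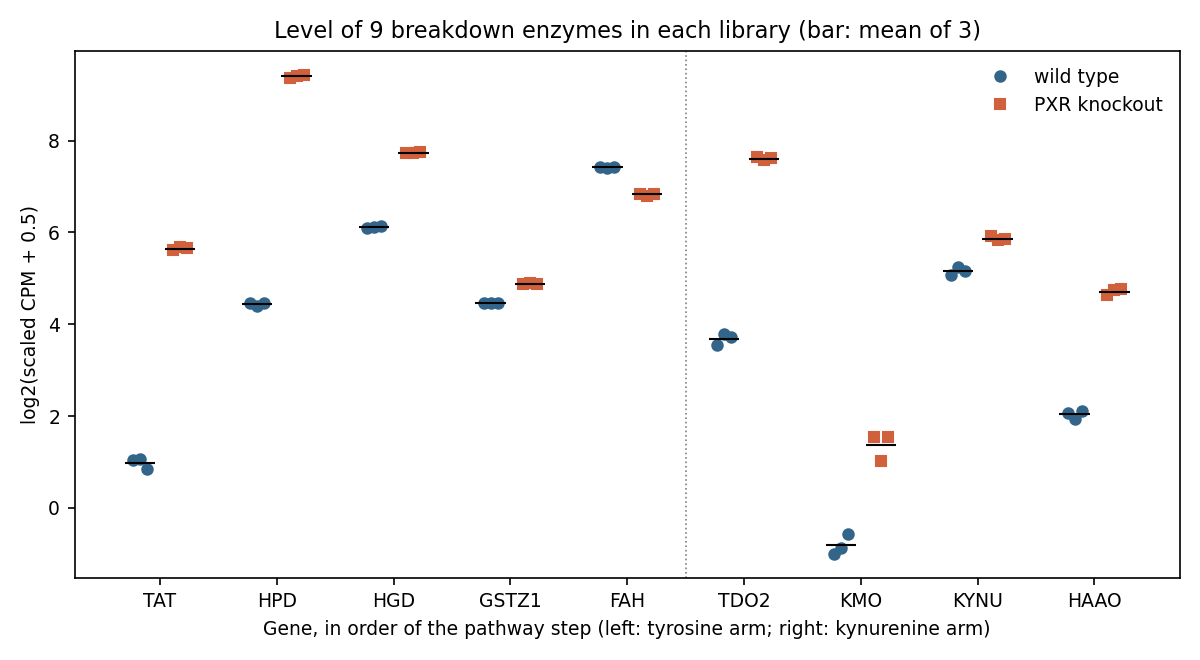
Level of the 9 enzymes in each library as log2(scaled CPM + 0.5), with wild type as circles, the PXR knockout as squares and the mean of 3 libraries as a bar. The knockout lies above wild type for every enzyme except FAH, and the groups do not overlap for any of the 9.

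Sequences before a RefSeq start are shown for 3 enzymes with different behaviour: TDO2 and HAAO of the kynurenine arm, which rose with log2 changes of 3.92 and 2.68, and FAH, which fell. RefSeq promoter windows (GRCh38.p14) were found for 7 of the 9 enzymes. Windows of 250 bases before the RefSeq start were searched on both strands, and only stretches free of GENCODE 29 exons are printed, 5′ to 3′ in the direction of the gene. The RefSeq starts used for TDO2 and FAH lie inside the GENCODE genes, so these 2 printed stretches are not upstream of the whole gene. Capitals mark the TATA box TATAAA, the HNF4 element CAAAGTCC and the GC box GGGCGG, none of which overlap in these stretches. HNF4 is a nuclear receptor of hepatocytes.
TDO2, chr4:155903446-155903692, plus strand: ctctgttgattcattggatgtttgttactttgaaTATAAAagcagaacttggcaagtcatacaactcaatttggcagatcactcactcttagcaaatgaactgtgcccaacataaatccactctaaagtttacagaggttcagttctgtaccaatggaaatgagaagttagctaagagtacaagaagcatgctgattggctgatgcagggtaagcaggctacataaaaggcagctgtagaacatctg
HAAO, chr2:42792594-42792833, minus strand: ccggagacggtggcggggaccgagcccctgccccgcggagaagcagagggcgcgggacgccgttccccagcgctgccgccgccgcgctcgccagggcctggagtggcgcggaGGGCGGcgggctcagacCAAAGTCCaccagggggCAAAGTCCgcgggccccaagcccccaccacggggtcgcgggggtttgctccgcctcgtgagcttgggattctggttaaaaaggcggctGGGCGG
FAH, chr15:80152546-80152779, plus strand: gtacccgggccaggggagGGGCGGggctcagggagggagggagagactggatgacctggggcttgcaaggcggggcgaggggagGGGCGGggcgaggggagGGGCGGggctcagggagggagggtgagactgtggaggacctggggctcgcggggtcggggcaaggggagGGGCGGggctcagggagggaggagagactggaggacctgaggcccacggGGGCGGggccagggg

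The windows differ in base composition. The TDO2 window has 40.0% G and C and no CpG (0 sites), that of HAAO 74.8% and 30 CpG, and that of FAH 77.2% and 16 CpG, beside medians of 58.0% and 11 CpG over 35114 promoters. The HAAO stretch holds 2 HNF4 elements, starting 121 and 104 bases before the gene's start, and 1.02% of promoters hold at least 1. The FAH stretch holds 5 GC boxes, and 42.6% of promoters hold at least 1. Another RefSeq window of FAH, not printed, has 75.6% G and C and 19 CpG. The TATAAA of TDO2 starts 216 bases before the start, which is not the usual place of a TATA box, and 10.7% of promoters hold those letters. Of the windows not printed, those of KMO and KYNU also have few CpG (1 each) and low GC (36.0% and 42.4%), and KMO has TATAAA at 29 bases before the start. GSTZ1 has 28 CpG, and the HPD window whose start lies inside the GENCODE gene has 5. High and low CpG windows occur among the enzymes that rose. None of these windows holds the C/EBP element TTGCGCAA, the glucocorticoid element (GNACA, 3 bases, TGTNC) or a PXR element (AGNTCA repeated after 3 or 4 bases, or TGANCT, 6 bases, AGNTCA; N is any base), which says only that these letters are not there.

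In the tyrosine arm the first 2 enzymes, TAT and HPD, rose most, HGD and GSTZ1 rose less, and the last enzyme, FAH, fell. TAT (ENSG00000198650.11, chromosome 16, 71565660 to 71577130 in GRCh38) was at 1.57, 1.58 and 1.30 CPM in libraries 1 to 3 of wild type and at 48.3, 50.7 and 50.04 CPM in those of the knockout. It was thus close to the detection filter in wild type, on 81 estimated reads over the 3 libraries, and clearly expressed in every knockout library. Its log2 change was 4.66 ± 0.086 (SE; limma adjusted p = 4.2e-15), and 114 of the 16219 tested genes had a larger one.

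HPD (chromosome 12, 121839527 to 121863596), the dioxygenase that follows TAT, was at 21.5, 20.4 and 21.6 CPM in wild type and at 658, 678 and 692 CPM in the knockout. HPD was moderate in every wild-type library and abundant in every knockout library. HPD rose by 4.96 ± 0.032 (limma adjusted p = 2.1e-19), with 89 tested genes above it. It lies in a stretch of chromosome 12 where the median change of 143 tested genes within 10 Mb was 0.47, and with that median taken out its change was 4.50.

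HGD (chromosome 3, 120628173 to 120682571), the oxygenase that opens the ring of homogentisate, was at 68.3, 69.1 and 70.4 CPM in wild type and at 211, 213 and 215 CPM in the knockout. Libraries of a group differed by a few percent at most, and the groups stood 3.08-fold apart. The log2 change was 1.61 ± 0.028 (limma adjusted p = 2.3e-15).

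GSTZ1 (chromosome 14, 77320884 to 77331597), the isomerase, moved little, from 21.5, 21.4 and 21.5 CPM to 28.9, 29.4 and 28.7 CPM. That rise of 0.42 ± 0.048 (limma adjusted p = 1.6e-06) was the smallest among the 8 enzymes that rose, and 4419 tested genes had a larger change. With libraries scaled to equal sums it was 0.29.

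FAH (chromosome 15, 80152490 to 80186946), the last enzyme of the arm, was at 170.1, 169.9 and 172 CPM in wild type and at 114, 111 and 115 CPM in the knockout. Every knockout library lay below every wild-type library. FAH fell by 0.59 on the log2 scale (SE 0.027, limma adjusted p = 7.3e-11), and the median change of the 158 tested genes within 10 Mb was 0.08.

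**Figure D2:**
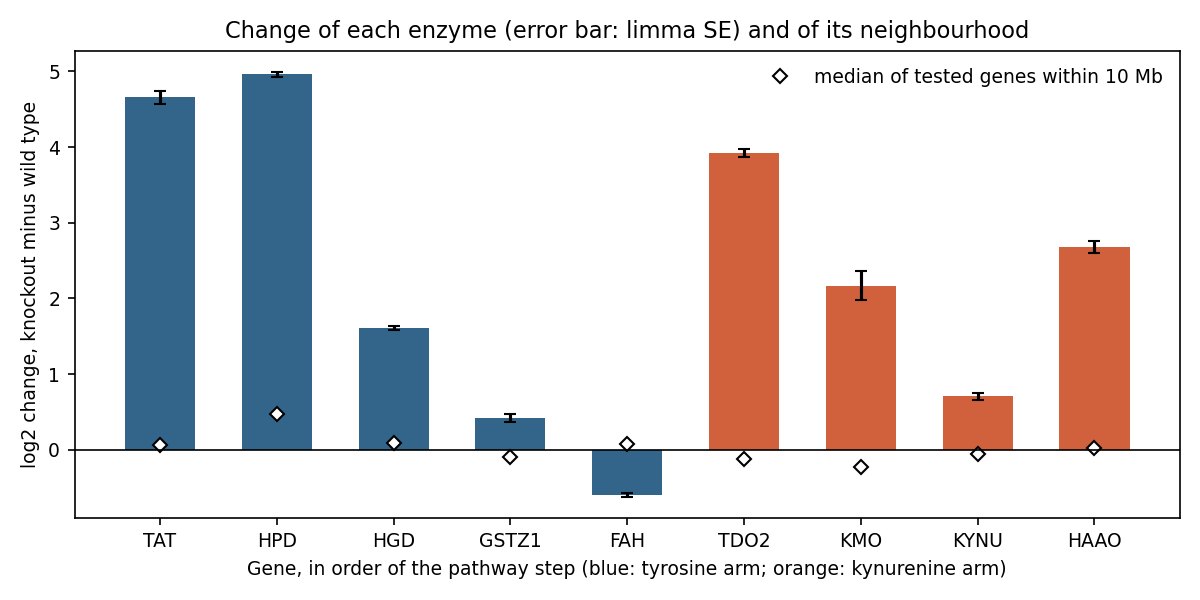
Log2 change of each enzyme, knockout minus wild type, with the limma SE as error bar and, as a diamond, the median change of all tested genes within 10 Mb. In the tyrosine arm the bars stand at 4.66 for TAT and 4.96 for HPD and end at -0.59 for FAH, while the neighbourhood medians lie between -0.22 and 0.47.

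Ratios of enzymes within a library do not depend on how libraries were scaled; they are not per length, so only their difference between groups is read. The ratio of HPD to FAH in CPM was 0.126, 0.120 and 0.125 in wild type and 5.78, 6.10 and 6.04 in the knockout, a 48.2-fold difference of the means. The ratio of HPD to HGD went from 0.306 ± 0.0097 to 3.17 ± 0.055 (SD, n = 3 each). GSTZ1 to FAH went from 0.126 ± 0.0011 to 0.256 ± 0.0072, although each of these genes had moved by less than 2-fold. HPD to TAT was different: 13.7, 12.9 and 16.6 in wild type and 13.6, 13.4 and 13.8 in the knockout, so the groups overlapped and TAT and HPD rose by similar factors. The lone high wild-type value, 16.6, belongs to the library with the lowest TAT level.

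In the kynurenine arm all 4 enzymes rose. Among the 3 that were above 1 CPM in every library, TDO2 at the entry had the largest change. TDO2 (chromosome 4, 155854738 to 155920406) was at 11.2, 13.2 and 12.6 CPM in wild type and at 198, 189 and 195 CPM in the knockout. Every knockout library stood far above every wild-type library. The log2 change was 3.92 ± 0.052 (limma adjusted p = 1.7e-16), and 186 tested genes had a larger one.

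KMO (chromosome 1, 241532134 to 241595642), a hydroxylase of the outer mitochondrial membrane, was barely seen. It had 0, 1 and 4 estimated reads in wild-type libraries 1 to 3 and 78, 41 and 78 reads in knockout libraries 1 to 3, or 2.40, 1.52 and 2.43 CPM in the latter. Reads summed per group and set against the summed depth gave a ratio of 23.8 with an exact 95% interval of 10.01 to 74.01, which covers counting error only. The fitted log2 change, 2.17 ± 0.19 with a pseudocount of 0.5, was 1.52 with a pseudocount of 1 and 3.76 with 0.1, so its size is not well determined. Exons of KMO share 1691 bases with OPN3 on the other strand, and the sources used here do not say whether counting used strand. OPN3 was at 44.2, 46.6 and 49.4 CPM in wild type and at 133, 131 and 134 CPM in the knockout, and its part in the KMO reads was not tested.

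KYNU (chromosome 2, 142877498 to 143055832), the kynureninase, was at 33.2, 37.5 and 35.2 CPM in wild type and at 60.005, 56.2 and 57.2 CPM in the knockout. The rise was modest beside that of TDO2, 0.71 ± 0.048 (limma adjusted p = 5.9e-09), with no overlap of the groups. The ratio of TDO2 to KYNU went from 0.350 ± 0.011 to 3.36 ± 0.057.

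HAAO (chromosome 2, 42767089 to 42792593), whose product can close on itself to form the NAD precursor quinolinate, was at 3.71, 3.30 and 3.82 CPM in wild type and at 24.4, 26.3 and 26.6 CPM in the knockout. The wild-type levels rested on 45, 69 and 85 estimated reads. The log2 change was 2.68 ± 0.084 (limma adjusted p = 1.0e-12), and the ratio of HAAO to KYNU rose from 0.103 ± 0.013 to 0.446 ± 0.035. Its log2 change thus lay between those of TDO2 and KYNU.

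**Figure D3:**
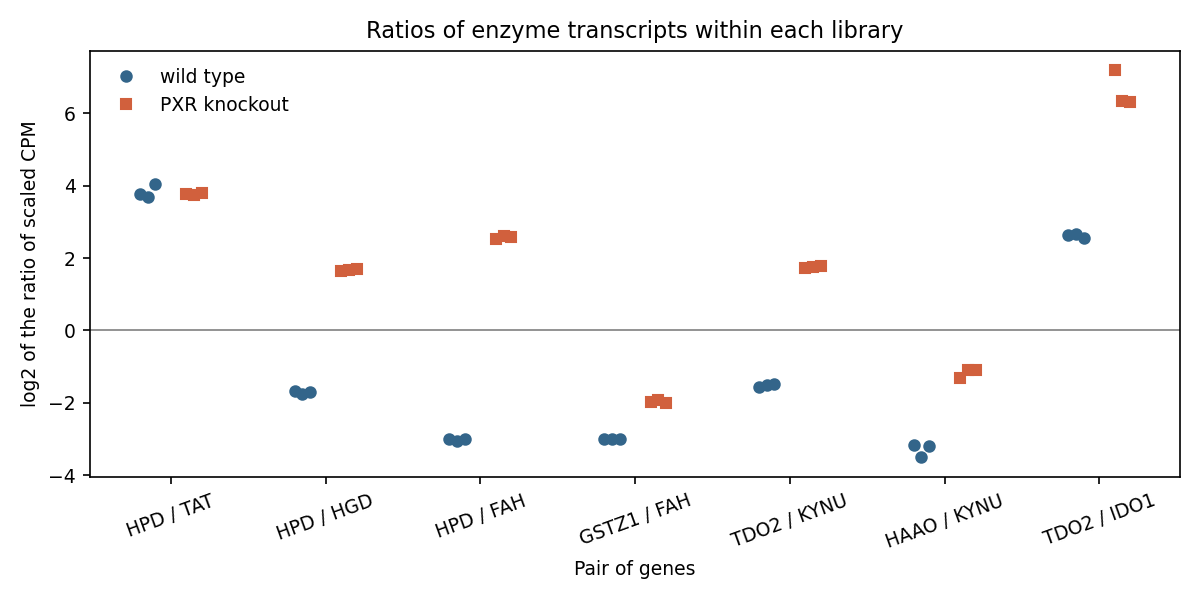
Log2 of the ratio of 2 transcripts (scaled CPM) in each library, wild type as circles and the PXR knockout as squares. HPD / TAT overlaps between the groups, whereas the other 6 ratios do not, and HPD / FAH goes from 0.124 to 5.97 on average before the log is taken.

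Levels of different genes were compared per kb of transcript, with the principal coding transcript of GENCODE 29 as the length. In wild type the order in scaled CPM per kb was FAH (79.4), HGD (34.5), GSTZ1 (16.04), HPD (14.9), TDO2 (7.26), HAAO (2.86), KYNU (2.30), TAT (0.373) and KMO (0.0144). In the knockout it was HPD (476), TDO2 (114), HGD (106), FAH (52.6), GSTZ1 (21.7), HAAO (20.4), TAT (12.5), KYNU (3.77) and KMO (0.402). No neighbours in either order overlapped between libraries. The leading transcript per kb thus was that of the last enzyme of tyrosine breakdown in wild type and that of HPD in the knockout. With the union of all exons as the length, FAH and HGD overlapped in wild type (23.7 ± 0.19 and 23.2 ± 0.37 CPM per kb) and HGD stood above TDO2 in the knockout, while HPD still led there. GSTZ1, with 8477 bases in place of 1338, then stood at 2.53 CPM per kb in wild type, below HPD (9.53). In the knockout GSTZ1 (3.42) overlapped KYNU (3.28) and lay below HAAO (9.44) and TAT (9.19), which also overlapped. KYNU is placed low by a long annotated transcript of 15316 bases. The places of KYNU and GSTZ1 are uncertain.

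Other genes of aromatic amino acid use went in both directions: of 38 tested, 21 rose, 8 fell and 9 did not pass, with a median log2 change of 0.33. Over all tested genes, 40.3% rose and 39.6% fell. Side steps of the kynurenine pathway and NAD synthesis were mostly higher, with 10 of 11 tested genes rising and none falling (median 1.10); the 10 include IDO2, which passed the filter only through the knockout. ACMSD, which diverts the product of HAAO away from quinolinate towards oxidation, was at 0.989, 1.15 and 1.17 CPM in wild type and at 55.7, 56.1 and 59.9 CPM in the knockout. Its change of 5.17 ± 0.085 (limma adjusted p = 1.2e-15) was above the 4.96 of HPD, but the order turned with a pseudocount of 1 (4.79 for ACMSD and 4.93 for HPD). QPRT, which commits quinolinate to NAD, rose from 32.1 ± 1.57 to 94.8 ± 1.62 CPM, and the ratio of ACMSD to QPRT went from 0.0344 ± 0.0039 to 0.604 ± 0.019. ALDH8A1, the dehydrogenase after ACMSD, rose from 1.41 ± 0.33 to 8.56 ± 0.37 CPM. AFMID, the formamidase that yields kynurenine, rose by 0.73 ± 0.052 (limma adjusted p = 9.0e-09).

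The other tryptophan oxygenases stayed low. IDO1, which interferon induces in many cells, was at 1.81, 2.07 and 2.15 CPM in wild type and at 1.36, 2.34 and 2.46 CPM in the knockout, with overlapping groups (limma adjusted p = 0.99). The ratio of TDO2 to IDO1 went from 6.16 ± 0.25 to 102 ± 38.0. IDO2 had 4 estimated reads over the wild-type libraries and 154 over the knockout libraries, a depth-adjusted ratio of 23.2 with an exact 95% counting interval of 8.89 to 86.3.

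Genes of tetrahydrobiopterin, the cofactor of the hydroxylases of aromatic amino acids, moved little as a list, with 3 of 7 rising and a median log2 change of 0.07. GCH1, which starts its synthesis, rose from 19.5 ± 0.64 to 51.2 ± 0.95 CPM and QDPR, which recycles it, from 7.72 ± 0.29 to 16.6 ± 0.32 CPM. Of 11 tested transaminases and amine-making or amine-degrading enzymes, 5 rose and 3 fell (median 0.14). The counts of both lists stand beside 40.3% of all tested genes upward and 39.6% downward. DDC, the aromatic amino acid decarboxylase, rose from 25.4 ± 2.11 to 101 ± 1.06 CPM and the monoamine oxidase gene MAOA from 663 ± 10.6 to 979 ± 17.01 CPM. The log2 change of DDC was 1.97, and 1.53 with the median within 10 Mb (0.44) taken out. AADAT, a kynurenine aminotransferase, fell from 9.32 ± 0.080 to 6.43 ± 0.90 CPM. The methyltransferase gene INMT fell from 2.94 ± 0.41 to 2.03 ± 0.33 CPM, a call lost without wild-type library 3 (limma adjusted p = 0.051) or knockout library 3 (adjusted p = 0.05). GCDH and DHTKD1, which act on the glutaryl-CoA branch that tryptophan shares with lysine, rose by 0.41 ± 0.057 and 0.34 ± 0.044.

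Among transporters of aromatic amino acids, 4 of 7 tested fell and 1 rose (median -0.23), beside 39.6% of all tested genes downward and 40.3% upward. The exchangers SLC7A5 (LAT1) and SLC7A8 (LAT2) both fell: SLC7A5 went from 10.6 ± 0.58 to 1.51 ± 0.23 CPM (log2 change -2.47 ± 0.12), and SLC7A8 from 10.3 ± 1.30 to 1.12 ± 0.089 CPM (log2 change -2.73 ± 0.12). Their shared heavy chain, SLC3A2, was at 211 ± 4.78 and 207 ± 3.20 CPM and did not pass the test (limma adjusted p = 0.34). SLC43A2 rose from 8.39 ± 0.72 to 14.8 ± 0.57 CPM. The median change within 10 Mb of it on chromosome 17 was 0.73, and with that taken out its change was 0.06 (limma adjusted p = 0.59).

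**Figure D4:**
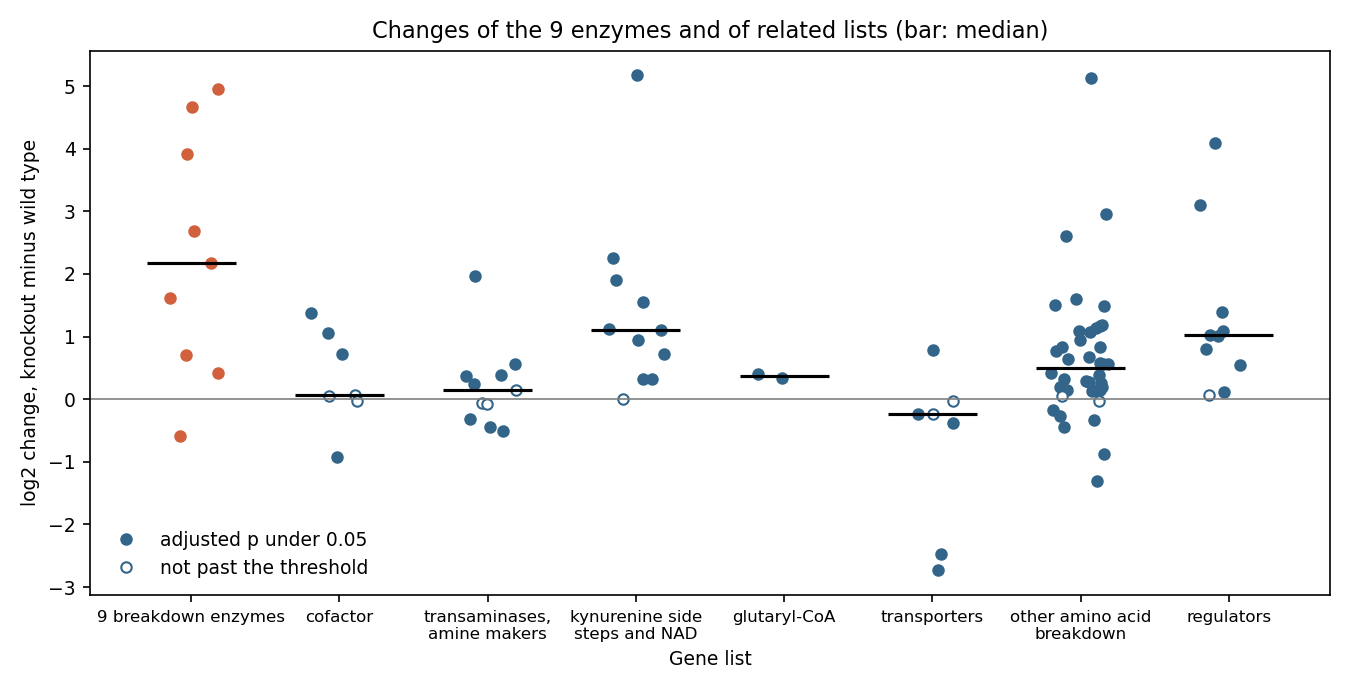
Log2 change, knockout minus wild type, of each tested gene of the 9 enzymes (orange) and of 7 related lists (blue; open circles did not pass the threshold), with the median of each list as a bar. The medians are 2.17 for the 9 enzymes with KMO included, 1.10 for kynurenine side steps and NAD, 0.49 for breakdown of other amino acids and -0.23 for transporters.

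Regulators of hepatocyte genes were listed as background to these enzymes. Of 10 tested, 9 rose and none fell (median 1.02), beside 40.3% of all tested genes upward and 39.6% downward. The 9 include the targeted gene NR1I2 itself, and ONECUT1, which passed the filter only through the knockout. NR3C1, the glucocorticoid receptor, was at 110 ± 5.87 CPM in wild type and at 115 ± 5.17 CPM in the knockout and did not pass (limma adjusted p = 0.20). ONECUT1 (HNF6) went from 4 estimated reads over the wild-type libraries, 0.0734 ± 0.022 CPM, to 9.28 ± 0.28 CPM, and PROX1 rose from 6.39 ± 0.33 to 58.6 ± 1.40 CPM. CEBPA, FOXA1 and FOXA2 rose by 1.01 ± 0.064, 1.03 ± 0.082 and 1.09 ± 0.069. CEBPB rose by 0.54 ± 0.054. AHR, a receptor for kynurenine among other ligands, was 0.12 ± 0.030 higher, a call whose sign turned with libraries scaled to equal sums (-0.01) and with the median of its chromosome 7 neighbourhood taken out (-0.39).

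The genes closest to TAT and TDO2 over the 6 libraries were found by Euclidean distance between centred log2 values. For TAT they were AL583836.1, CALN1 and PLCXD1, at distances of 0.122, 0.146 and 0.153. For TDO2 they were FAM19A2, ST18 and PTPRQ, at 0.0852, 0.121 and 0.147. With 3 libraries against 3, this likeness says mainly that the genes had nearly the same log2 change at a pseudocount of 0.5. AL583836.1, CALN1, PLCXD1 and ST18 had wild-type means of 0.213, 0.740, 0.289 and 0.167 CPM and passed the filter only through the knockout. With a pseudocount of 0.1 the log2 change was 4.98 for TAT and 5.84, 5.27 and 5.72 for AL583836.1, CALN1 and PLCXD1. For TDO2 it was then 3.97, and for FAM19A2, ST18 and PTPRQ 4.19, 5.21 and 3.98.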

How the data were processed

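RNA of 3 wild-type and 3 PXR knockout libraries of HepaRG was compared. Per the labels' protocols, libraries were made with a stranded mRNA kit. Tools listed in the submitters' processing notes are Bowtie2, Trim Galore, FastQC, limma and edgeR, with build hg38; the annotation, in the sources used here, is not given, nor are versions. The deposited values are a linear signal (scaled CPM), although the table is named for log2 values: columns of the deposited signal sum to 936409 to 1042826, in steps of a hundredth of a read. Only 67.9% to 76.4% of values under 20 reads were whole within 0.006, so genes were not tested with a count model. The exact intervals for KMO and IDO2 took summed reads rounded to whole numbers.

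Removing 14 second pseudoautosomal copies left 16659 genes, and 16608 matched GENCODE 29. log2(scaled CPM + 0.5) was fitted with limma 3.58.1 in R 4.3.3 (trend, two-sided, Benjamini-Hochberg over 16219 genes). On simulated data for this comparison (15208 genes, 50 changed per fold size) the fit recovered 86% of 1.5-fold, 98% of 2-fold and 100% of 4- and 8-fold changes, with 13 false calls among 205. The simulation changed only 200 genes, gave all genes the same dispersion and used only genes with a wild-type mean above 1 CPM. It left out KMO, and its rates need not hold for the real data, where 79.9% of genes passed. Within-group chi-squares per gene averaged 2.25 to 9.80, so each library counted as 1 replicate. Their medians were only 0.636 to 0.914, so the means do not describe most genes. Named genes are the 9 enzymes, the up to 2 largest rises and falls per related list, a fixed set of regulators and the 3 nearest genes to TAT and TDO2; SLC3A2, QPRT, AFMID, IDO1, IDO2 and OPN3, and the genes of the closing section, were named after their values were seen. Members and lists were chosen with earlier results of these data known. Listed genes without a row were not analysed here, and some listed genes that the rule would name are not reported here. Tables used Python 3.11.15, pandas 2.3.3, numpy 2.4.6, scipy 1.17.1 and matplotlib 3.10.9.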

Additional observations from a re-analysis of the deposited data

How the results depend on the processing

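Each of the 9 enzymes kept its direction and stayed past the threshold under every alternative that gave it a value, apart from the added 2-fold minimum, which GSTZ1, KYNU and FAH did not reach. Ranges of the log2 change were 4.35 to 4.98 for TAT, 4.50 to 4.99 for HPD, 1.48 to 1.63 for HGD, 0.29 to 0.53 for GSTZ1, -0.73 to -0.58 for FAH, 3.79 to 4.05 for TDO2, 1.52 to 3.76 for KMO, 0.57 to 0.77 for KYNU and 2.54 to 2.80 for HAAO. KMO was not tested with the stricter filter or without any of the knockout libraries, since it then fails the filter. The 2-fold minimum left 0 of the 9 enzymes lower, 9 higher and 2 lower among other aromatic amino acid genes (21 and 8 without it), 11 higher and 1 lower among genes of other amino acid breakdown (32 and 6 without it), and 2050 higher and 1636 lower of all genes (6534 and 6426 without it); a stricter rule gives fewer calls by construction. Scaling to equal sums moved the median log2 change of all genes by -0.13, with 5342 genes higher and 7705 lower, and turned NR3C1 to -0.08 and AHR to -0.01; AHR was -0.39 with window medians taken out, and the cause was not tested. IDO1, near no change, took the other sign with a pseudocount of 1 (0.0), with window medians taken out (0.02) and without wild-type library 2 (0.02) or 3 (0.04) or knockout library 1 (0.21; -0.12 to 0.21 over libraries left out in turn), while its adjusted p stayed at or above 0.23 in these. With the replicate number as a block, 8 enzymes were higher and 1 lower, and 6518 genes were higher and 6398 lower in all. Deviations of same-numbered libraries correlated by -0.02, -0.06 and 0.02, so no shared deviation by number was seen. This cannot show whether same-numbered libraries were made together. Depth limits KMO, IDO2 and ONECUT1, with 5, 4 and 4 wild-type reads.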

Other observations

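Breakdown of other amino acids was measured by 40 genes, of which 32 rose, 6 fell and 2 did not pass limma's threshold, with a median log2 change of 0.49. Over all tested genes 40.3% rose and 39.6% fell. The 32 include PRODH2, which passed the filter on low values only through the knockout. The genes named here were chosen after their values were seen. PRODH2, which starts hydroxyproline breakdown, was at 0.247, 0.527 and 0.360 CPM in libraries 1 to 3 of wild type and at 27.3, 31.6 and 31.2 CPM in the knockout. ALDH4A1, the dehydrogenase that serves proline and hydroxyproline, rose from 42.1 ± 1.97 to 331 ± 16.7 CPM. AASS, the entry to lysine breakdown, rose from 89.2 ± 2.16 to 271 ± 4.81 CPM. Its log2 change was 1.60, and 1.16 with the median within 10 Mb (0.44) taken out. Of 24 branched chain genes, 20 rose and 2 fell, but within a narrower range, from -0.33 to 1.18.

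The glycine cleavage system was split. GLDC, its decarboxylase, was at 12.1, 10.4 and 11.2 CPM in wild type and at 67.1, 73.9 and 71.7 CPM in the knockout, a log2 change of 2.60. Of its partners, AMT and GCSH fell: AMT went from 4.38 ± 1.12 to 1.44 ± 0.25 CPM, and GCSH from 32.9 ± 0.96 to 24.05 ± 1.07 CPM. The remaining partner DLD, counted above with the branched chain genes, rose from a mean of 130 CPM to 231 CPM, a log2 change of 0.83. Median changes of tested genes within 10 Mb were 0.52 for GLDC, -0.28 for AMT, -0.04 for GCSH and 0.43 for DLD. With these medians taken out, the log2 changes were 2.08 for GLDC, -1.04 for AMT, -0.40 for GCSH and 0.40 for DLD. The groups did not overlap for GLDC, AMT, GCSH or DLD, which held for 80.8% of all tested genes.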
